A study of Mus musculus with 2 samples.

Results

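Collagen genes were described in 2 sections of mouse melanoma. Every gene symbol of the deposited matrix made of "Col", a number, "a" and a number was taken, which gave 44 of 19465 genes. By the usual classes of the family these were 11 fibrillar, 6 basement membrane, 2 multiplexin, 6 beaded filament, 9 fibril-associated, 3 short-chain network, 1 anchoring fibril and 4 transmembrane collagens and 2 others. Both tumours came from B16.F10 cells, a mouse melanoma line that makes pigment, inoculated into otherwise untreated mice of 8 to 16 weeks, and were removed on day 15. The WT section, whose genotype label reads wild-type, came from a mouse with floxed Csnk2b (Csnk2b fl/fl), and the KO section from a Foxp3-Cre × CK2b-fl/fl mouse. Both hosts carry the floxed gene, the Foxp3 promoter directs Cre to regulatory T cells, and the tumour cells themselves keep Csnk2b. Each genotype is represented by 1 section of 10 µm, so differences between genotypes have no replicates behind them and no test was made.

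Collagens are trimeric proteins of the extracellular matrix. Fibrillar collagens, made mainly by fibroblasts, form the tensile fibrils of connective tissue, and fibril-associated collagens such as Col12a1 and Col14a1 sit on their surface. Type IV chains form the network of basement membranes around vessels, muscle fibres and nerves, type VI chains form beaded filaments between fibrils and membranes, and type XV and type XVIII chains sit in or beside basement membranes. In tumours, fibrillar collagen marks the fibroblast-rich capsule and septa, and type IV collagen outlines blood vessels.

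The collagen chains that carry the results lie at several loci. Positions are of whole genes in RefSeq's GRCm38.p6 annotation, the assembly that mm10 denotes. Col1a1 (ENSMUSG00000001506) lies on chromosome 11 from 94936224 to 94953042, Col1a2 (ENSMUSG00000029661) on chromosome 6 from 4505618 to 4541543, and Col3a1 (ENSMUSG00000026043) on chromosome 1 from 45311538 to 45349706. Col4a1 (ENSMUSG00000031502) on chromosome 8, from 11198423 to 11312889, and Col4a2 (ENSMUSG00000031503), from 11312805 to 11449287, are transcribed away from each other. Col9a1 (ENSMUSG00000026147) lies on chromosome 1 from 24177589 to 24252738. RefSeq promoter windows of GRCm38.p6 were matched for 35 of the 44 genes. The windows of Col1a2 and Col3a1 are shown because these 2 abundant fibrillar genes differed in their KO over WT ratio, and the Col4a1 and Col4a2 start region because the pair shares it. The 250 bases before the start of Col1a2 (chr6:4505368-4505617, plus strand) and of Col3a1 (chr1:45311288-45311537, plus strand) and the 22 bases from the start of Col4a2 to that of Col4a1 in the promoter table (chr8:11312805-11312826, plus strand) read as follows, with matches on either strand in capitals to the CCAAT box, to TATAAA as in a TATA box, to GGGCGG as in a GC box bound by Sp1, and to CAGACA as in motifs of Smad factors.
Col1a2: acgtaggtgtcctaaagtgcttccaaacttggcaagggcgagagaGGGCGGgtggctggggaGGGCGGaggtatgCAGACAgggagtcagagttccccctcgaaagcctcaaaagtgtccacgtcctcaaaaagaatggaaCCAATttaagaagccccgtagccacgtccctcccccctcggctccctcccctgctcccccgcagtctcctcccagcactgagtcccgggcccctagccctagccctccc
Col3a1: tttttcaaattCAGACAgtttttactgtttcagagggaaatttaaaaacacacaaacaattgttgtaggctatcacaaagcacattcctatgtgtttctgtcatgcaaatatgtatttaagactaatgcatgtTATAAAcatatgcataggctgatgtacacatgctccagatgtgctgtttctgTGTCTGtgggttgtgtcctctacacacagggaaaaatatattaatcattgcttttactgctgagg
Col4a1 and Col4a2: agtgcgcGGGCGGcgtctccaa

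These letters differ between the 2 fibrillar genes. Counted back from the first transcribed base, Col1a2 held GGGCGG at -205 and -188, CAGACA at -175 and CCAAT at -109. Col3a1 held CAGACA at -239, TATAAA at -117 and the reverse complement of CAGACA at -65, with neither the GC box letters nor the CCAAT box in the window. In the promoter table Col4a2 starts at 11312805 on the plus strand and Col4a1 at 11312826 on the minus strand, and the 22 bases from one to the other are those printed. The annotated Col4a1 gene runs on to 11312889, past that start, so the 2 genes overlap there. Over whole windows, which run from 250 bases before to 50 after the start, GGGCGG occurred in 23 of 38 collagen windows and in 35.7% of all 32851 promoter windows. CCAAT occurred in 13 of 38 and in 37.4%, TATAAA in 5 of 38 and in 13.6%, and CAGACA in 9 of 38 and in 21.0%. The 4 motifs share no letters in the printed windows. A match is a description of letters, not of a bound site.

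The WT section held 3066 tissue-covered spots and 88735936 UMIs (unique molecular identifiers, the counted molecules), with a median of 26818.5 per spot. The KO section held 2746 spots and 94422680 UMIs, with a median of 36769. The 2138 barcodes found in both sections are positions of the same capture grid, not shared cells. Csnk2b, the targeted gene, gave 34809 WT and 36969 KO UMIs, or 392 CPM (counts scaled to the section's total) in each. That sum does not check a deletion confined to regulatory T cells. Melanoma genes dominated both sections, with 43424.5 CPM of the 13-gene list (WT) and 49831 CPM (KO). Marker lists of other tissue differed between the sections, and with 1 section each the piece of tissue and the genotype cannot be told apart. A 20-gene stroma list that holds no collagen stood at 2535 CPM (WT) and 637 CPM (KO), with all 20 members lower in the KO. Each of the 14 skeletal muscle genes was higher in the KO section, by 2-fold or more. In whole sections and in spots, fewer cells of a type and less RNA per cell cannot be told apart.

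Collagen transcripts were 6.49-fold lower in the KO section. The 44 genes summed to 1226361 UMIs, 1.38% of all UMIs, in the WT section and to 200974 UMIs, 0.213%, in the KO section. Scaled to the section totals these were 13820 and 2128 CPM, a ratio whose 95% exact conditional binomial interval is 6.46 to 6.52-fold. This interval and those below cover counting error only. The difference between sections is within the spread inside them: over the 4 quadrants of a section the sum ran from 1334 to 43757 CPM in the WT and from 910 to 5864 CPM in the KO. Col1a1, Col1a2 and Col3a1 together held 85.5% of the WT and 63.1% of the KO collagen UMIs. Without these 3 genes the other 41 stood at 2001 and 785 CPM, 2.55-fold lower in the KO section (2.53 to 2.57).

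Single members did not follow the sum evenly. Of the 44 genes, 40 had at least 50 UMIs over both sections. Of these, 24 had a KO over WT ratio below 1, against 38% of all genes, with 17 lower by 2-fold or more, and 2 were higher by 2-fold or more. Among all 16961 genes with that many UMIs, 4.85% were at least 2-fold lower and 14.7% at least 2-fold higher. The median log2 ratio was -0.31 over the collagens and 0.15 over all genes. The 4 collagens below the minimum were Col4a6, with 4 WT and 5 KO UMIs, Col17a1, with 0 and 7, Col19a1, with 3 and 11, and Col26a1, with 10 and 12. A count of 0 in the WT section allows up to 0.0338 CPM, taken as 3 counts.

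**Figure D1:**
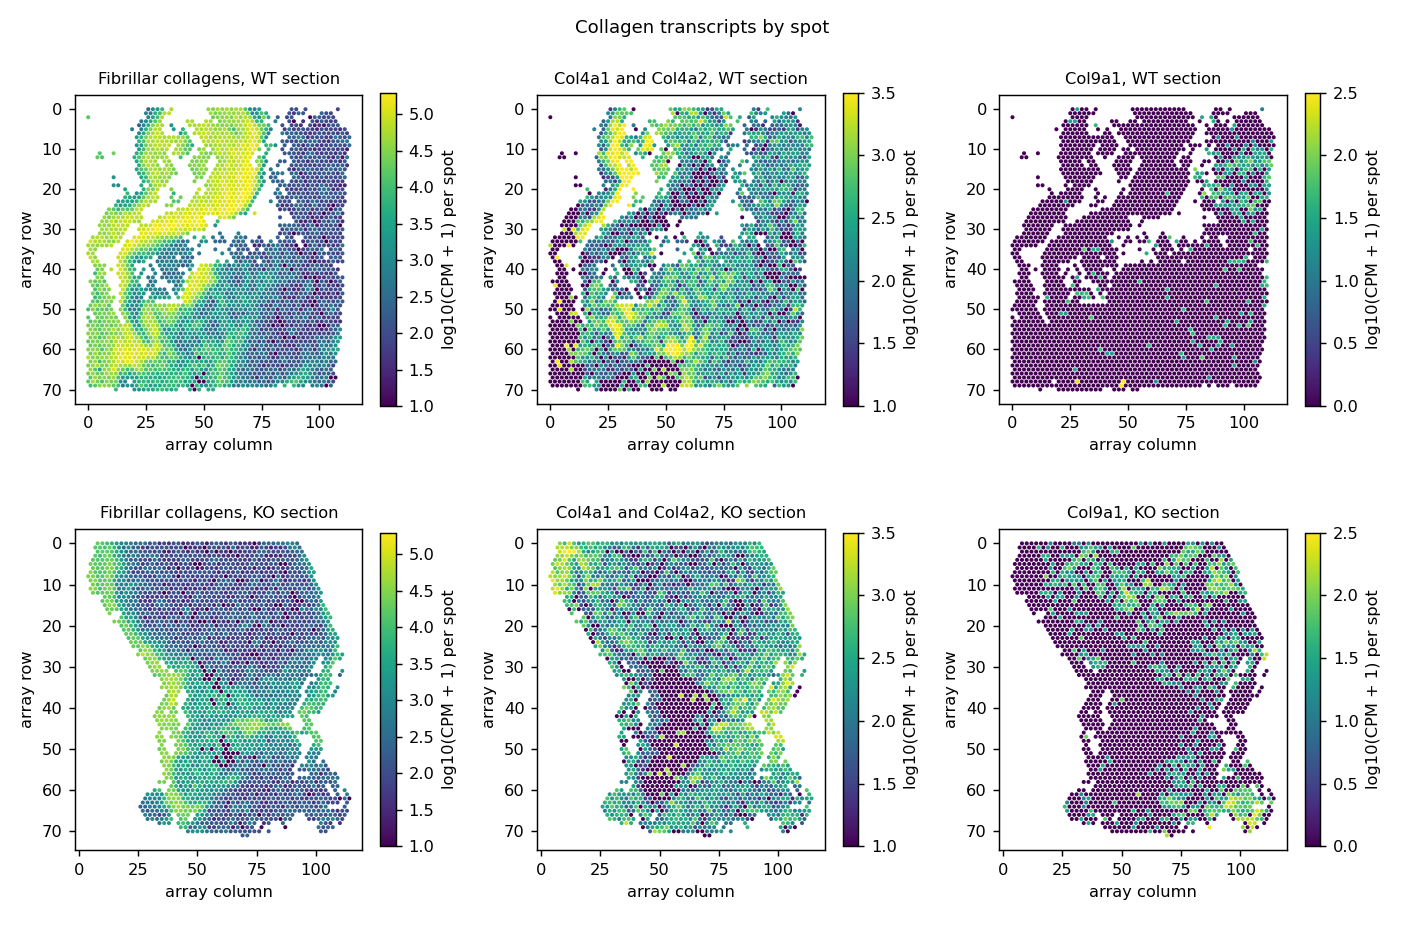
Spots of the WT (top) and KO (bottom) section at their array row and column, coloured by log10(CPM + 1) of the summed fibrillar collagens (left), Col4a1 and Col4a2 (middle) and Col9a1 (right), each pair of maps on 1 colour scale. Fibrillar transcripts fill a broad band on the upper and left side of the WT section and a thin edge of the KO section, Col4a1 and Col4a2 occur in patches of both, and Col9a1 lies mostly away from the fibrillar band.

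Fibrillar collagens, the largest class by UMIs, carried the difference in the sum. Their total was 12600 CPM in the WT section and 1494 CPM in the KO section, 8.44-fold lower (8.39 to 8.48), and 8 of the 11 genes were at least 2-fold lower. Col1a1, the alpha 1 chain of type I collagen, gave 426992 UMIs or 4812 CPM in the WT and 43898 UMIs or 465 CPM in the KO section, 10.4-fold lower. Col1a2, the partner chain, gave 304006 UMIs (3426 CPM) and 29133 UMIs (309 CPM), 11.1-fold lower (10.97 to 11.2). Col3a1, the only chain of type III collagen, which mixes with type I in soft connective tissue, gave 317763 UMIs (3581 CPM) and 53810 UMIs (570 CPM), 6.28-fold lower. The interval of the Col3a1 fold, 6.23 to 6.34, and that of Col1a1, 10.2 to 10.5, do not meet. Quadrants of the 2 sections overlapped for all 3 genes, as for Col1a1, which ran from 310 to 15268 CPM in the WT and from 121 to 1528 CPM in the KO section.

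The type V chains, which sit inside type I fibrils and set their diameter, were lower too. Col5a1 stood at 338 CPM (WT) and 37.1 CPM (KO), 9.10-fold lower (8.79 to 9.43). Col5a2 stood at 291 and 49.0 CPM, 5.94-fold lower (5.76 to 6.13). Col5a3, a less widely expressed type V chain, stood at 131 and 42.4 CPM, 3.09-fold lower (2.98 to 3.20). The other fibrillar genes were scarce. Col11a1 gave 150 WT and 41 KO UMIs, 3.89-fold lower (2.74 to 5.64), and Col27a1 gave 424 and 179 UMIs, 2.52-fold lower (2.11 to 3.02). Col24a1 gave 77 and 68 UMIs. Col2a1, the chain of cartilage fibrils, was on the other side, with 733 WT and 1171 KO UMIs, a ratio of 1.50 (1.37 to 1.65), and its quadrants did not overlap (6.65 to 10.03 against 10.05 to 19.6 CPM). Col11a2 gave 520 and 614 UMIs, a ratio of 1.11 that became 0.954 with TMM scaling.

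Basement membrane collagens differed little between the sections. The class stood at 347 CPM (WT) and 305 CPM (KO), a ratio of 0.879 (0.865 to 0.894), and no member was at least 2-fold lower. Col4a3 alone was at least 2-fold higher, on few UMIs (ratio 2.103, 1.23 to 3.70). Col4a1, with Col4a2 the chain found in nearly all basement membranes, gave 16849 UMIs (190 CPM) in the WT and 14042 UMIs (149 CPM) in the KO section, a ratio of 0.783 (0.766 to 0.801). Col4a2 gave 12252 UMIs (138 CPM) and 12676 UMIs (134 CPM), a ratio of 0.972 (0.948 to 0.997). Quadrants overlapped for both, at 116 to 307 against 122 to 198 CPM for Col4a1. Col4a5, a chain of specialised basement membranes, gave 1625 and 1964 UMIs, a ratio of 1.14 that became 0.977 with TMM scaling. Col4a3 gave 21 and 47 UMIs and Col4a4 gave 42 and 84, counts near the background of probes for genes that this tissue should not express, whose median over 15 such genes was 19 WT and 42 KO UMIs. Single genes of these 15 reached 333 WT and 380 KO UMIs. Basement membrane chains made up 2.51% of WT and 14.3% of KO collagen UMIs, and fibrillar chains 91.2% and 70.2%.

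The multiplexins, whose C-terminal fragments are known as inhibitors of vessel growth, differed from each other. Col15a1 stood at 108 CPM (WT) and 52.3 CPM (KO), 2.07-fold lower (1.999 to 2.14). Col18a1, the source of endostatin, stood at 21.0 and 24.9 CPM, a ratio of 1.19 (1.12 to 1.26). The direction for Col18a1 rests on the scaling, since its log2 ratio of 0.25 became -0.18 when every spot was weighted equally and 0.03 with TMM factors.

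Beaded filament collagens were lower in the KO section by less than the fibrillar chains. Col6a1, Col6a2 and Col6a3, the 3 chains of the common type VI filament, stood at 94.7, 227 and 135 CPM in the WT section. In the KO section they stood at 31.1, 59.6 and 40.7 CPM. The folds were 3.05 for Col6a1 (2.92 to 3.18), 3.81 for Col6a2 (3.70 to 3.92) and 3.32 for Col6a3 (3.20 to 3.44). Col6a4, Col6a5 and Col6a6, which replace Col6a3 in other tissues, gave between 33 and 73 UMIs in either section.

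Fibril-associated collagens held both the largest lower and the largest higher values outside the fibrils. Col12a1, which coats fibrils under load, stood at 90.8 CPM (WT) and 9.09 CPM (KO), 10.0-fold lower (9.32 to 10.7). Col14a1, its close relative, stood at 51.9 and 11.7 CPM, 4.44-fold lower (4.16 to 4.75). Col16a1 stood at 57.6 and 45.1 CPM, a ratio of 0.784 (0.753 to 0.817). Col9a1, the type IX chain best known from cartilage, gave 361 UMIs (4.07 CPM) in the WT and 1381 UMIs (14.6 CPM) in the KO section, 3.595-fold higher (3.20 to 4.05). The quadrants overlapped, at 0.910 to 8.70 against 3.46 to 18.1 CPM. Its partner chains did not share that size: Col9a3 gave 760 and 1065 UMIs, a ratio of 1.32 (1.20 to 1.45), and Col9a2 gave 377 and 428 UMIs. Col20a1 and Col22a1 gave 37 to 150 UMIs in either section.

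The short-chain chains Col8a1 and Col8a2, which form the hexagonal network of vascular and corneal matrix, were lower. Col8a1 stood at 51.1 CPM (WT) and 12.5 CPM (KO), 4.07-fold lower (3.82 to 4.35). Col8a2 gave 672 and 86 UMIs, 8.31-fold lower (6.63 to 10.5). Col10a1, the chain of growth cartilage, gave 36 and 65 UMIs. Col7a1, the anchoring fibril chain under epidermis, gave 126 and 96 UMIs, a ratio of 0.716 (0.543 to 0.941). Of the transmembrane collagens, Col13a1 gave 281 and 125 UMIs, 2.39-fold lower (1.93 to 2.98), Col23a1 gave 165 and 156 and Col25a1 gave 27 and 56. Col28a1, which fits no class above, gave 113 and 116 UMIs. Quadrants of the sections were apart for 4 of the 44 genes, Col2a1, Col4a4, Col4a5 and Col25a1, with the higher values in the KO section. The share of all genes with quadrants apart was not computed, so this count cannot be read as high or low. Col2a1 was apart by a narrow margin, with a highest WT quadrant of 10.03 and a lowest KO quadrant of 10.05 CPM. The whole-section ratio of Col4a5 was 0.977 with TMM scaling. Background genes were mostly higher in the KO section too, with a median log2 ratio of 0.93 over 11 measured ones, 2 of them below a ratio of 1. Col4a4 and Col25a1 had counts near that background.

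**Figure D2:**
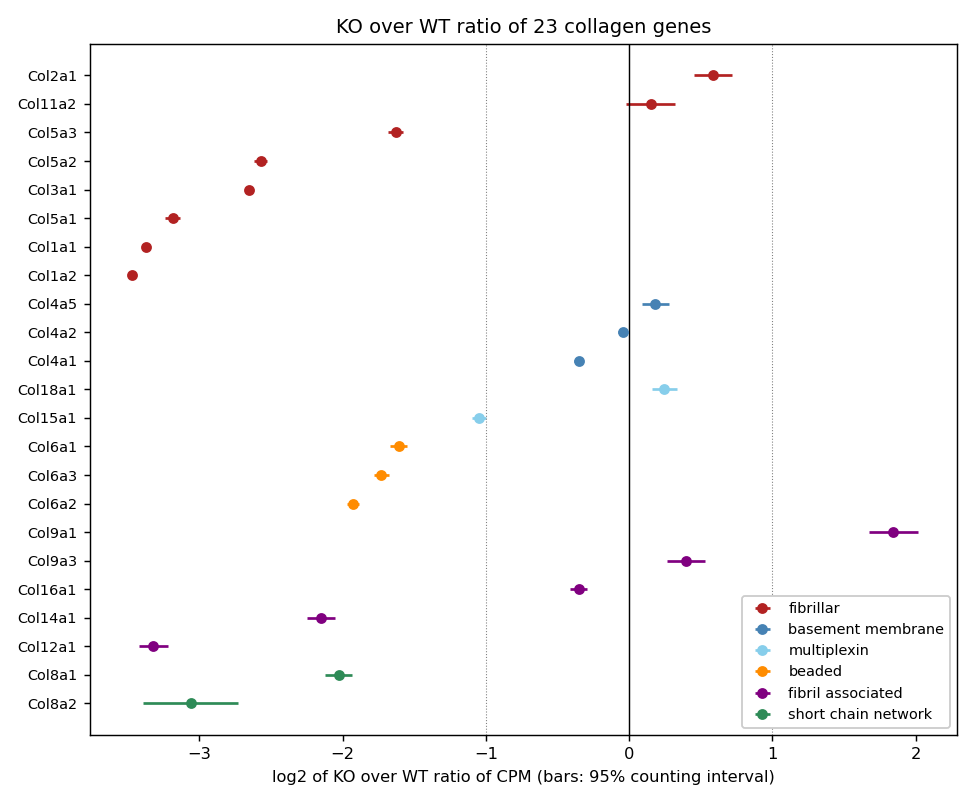
The log2 of the KO over WT ratio of CPM for the 23 collagen genes that reached 500 UMIs in the WT or KO section, grouped and coloured by class, with 95% counting intervals and dotted lines at 2-fold. Type I, III and V chains and Col12a1 lie left of -1, type IV chains near 0, and Col9a1 alone lies right of 1.

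Spots were then grouped by marker genes that hold no collagen, to ask in which tissue the chains were found. Stroma-rich, muscle-rich and vessel-rich spots reach the 90th percentile, over both sections, of the share of UMIs from the stroma, muscle or endothelial list and of no other of these. Melanoma-dense spots are at or above the median share of the melanoma list and in none of those sets. The WT section had 415 stroma-rich, 301 vessel-rich, 106 muscle-rich and 1197 melanoma-dense spots, and the KO section had 27, 106, 303 and 1460. A spot is a small area that can hold several cell types. WT muscle-rich spots held little muscle RNA, 289 CPM of the muscle list against 2156 CPM in KO ones.

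Within the WT section, type I, III and V chains were concentrated in stroma-rich spots. All collagens stood at 109468 CPM in stroma-rich spots, 16564 CPM in vessel-rich spots, 5327 CPM in muscle-rich spots and 1081 CPM in melanoma-dense spots. Of 29 members with at least 50 UMIs over stroma-rich and melanoma-dense spots, 18 were at least 2-fold higher in stroma-rich spots, against 19.4% of 12057 genes, and 6 at least 2-fold lower, against 28%. The median log2 difference was 3.58 over the members and -0.45 over all genes. Col3a1 was 260-fold higher, at 33284 against 128 CPM, Col1a2 163-fold, Col14a1 159-fold, Col1a1 151-fold and Col12a1 107-fold. Type V chains were 30.3-fold (Col5a3) to 93.5-fold (Col5a1) higher and type VI chains 23.3-fold (Col6a3) to 35.4-fold (Col6a2). Col16a1 was 4.49-fold higher, at 175 against 39.0 CPM. The 6 members at least 2-fold lower in stroma-rich spots were Col2a1 (1.84 against 8.46 CPM), Col11a2 (2.51 against 7.10), Col9a1 (0.167 against 5.65), Col9a2 (1.004 against 5.80), Col9a3 (3.85 against 9.75) and Col13a1 (0.502 against 1.42). Each of these rests on 23 or fewer UMIs in stroma-rich spots.

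Basement membrane chains had another place. In WT stroma-rich spots Col4a1 stood at 100 CPM and Col4a2 at 63.1 CPM, close to their 110 and 78.7 CPM in melanoma-dense spots. In vessel-rich spots they reached 743 and 551 CPM, 6.75-fold and 6.998-fold above melanoma-dense spots. Col15a1 (7.25-fold) and Col18a1 (6.62-fold) were likewise highest in vessel-rich spots. Col4a5 differed little over the sets, from 15.2 to 22.2 CPM. Over vessel-rich and melanoma-dense spots 21 of 29 members were at least 2-fold higher in the former, against 14.2% of 11847 genes, and the median log2 difference was 2.86 against -0.06. WT vessel-rich spots also held 2750 CPM of the stroma list and 828 CPM of pericyte and smooth muscle genes, compared with 382 and 114 CPM in melanoma-dense spots, and the part of these in the collagen values was not tested.

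For the summed collagens the 4 spot sets of the KO section stood in the same order. They held 49578 CPM in stroma-rich spots, 5475 CPM in vessel-rich, 4099 CPM in muscle-rich and 670 CPM in melanoma-dense spots. Over stroma-rich and melanoma-dense spots 22 of 30 members were called at least 2-fold higher in the former, against 27.9% of 12601 genes. The number called at least 2-fold lower was 2, against 26.3%. The median log2 difference was 1.82 against -0.10. These counts, shares and medians are partly set by the 0.5 added to each count, since KO stroma-rich spots held 143815 UMIs in all. Col4a4, Col7a1, Col8a2, Col13a1, Col20a1, Col23a1 and Col27a1 were called higher with 0 UMIs in these spots. Their calls come from that addition and do not show a higher level. The fibrillar total was 214-fold higher (162-fold in the WT section), the beaded total 20.04-fold (29.9-fold in the WT) and the basement membrane total 0.915-fold (0.863-fold in the WT). In the 27 KO stroma-rich spots the beaded and basement membrane totals rest on 171 and 32 UMIs. Over vessel-rich spots 20 of 30 members were at least 2-fold higher, against 13.3% of 12820 genes, with Col4a1 4.95-fold and Col4a2 5.29-fold higher. KO muscle-rich spots held 16 of 32 members at least 2-fold higher than melanoma-dense spots, against 13.2% of 13283 genes, and none at least 2-fold lower, against 0.452%. There Col3a1 stood at 1395 CPM and Col4a1 at 175 CPM. In WT muscle-rich spots the count was 13 of 27, against 6.31% of 11547 genes.

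**Figure D3:**
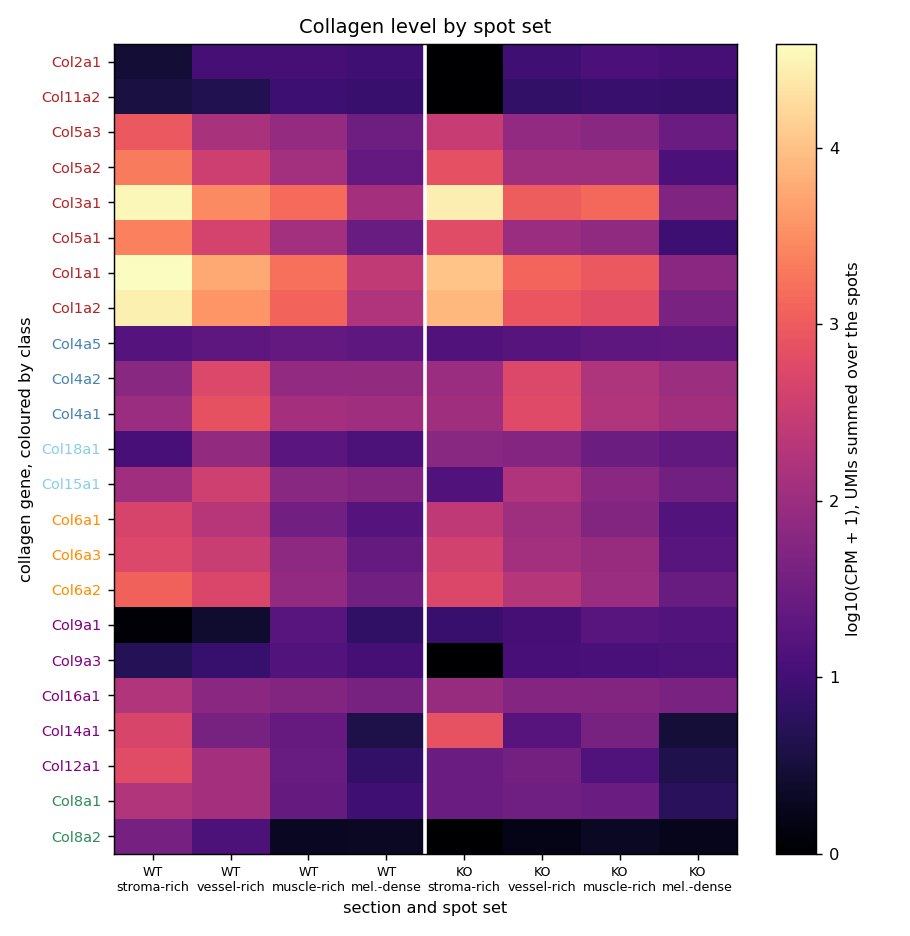
Log10(CPM + 1) of the 23 collagen genes in the 4 spot sets of the WT (left) and KO (right) section, with gene names coloured by class. Read along a row: type I, III, V and VI chains are brightest in stroma-rich spots, Col4a1, Col4a2 and Col15a1 in vessel-rich spots of both sections, and Col2a1, Col9a3 and Col11a2 are dim throughout.

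Compared set by set, the fibrillar total was lower in the KO section in all 4 sets. In melanoma-dense spots, the set with the most UMIs, the fibrillar total stood at 653 CPM (WT) and 220 CPM (KO), 2.96-fold lower (2.90 to 3.02). Col1a1 there stood at 256 and 64.2 CPM, 3.99-fold lower (3.85 to 4.14), and Col3a1 at 128 and 47.5 CPM, 2.70-fold lower (2.58 to 2.82). In these spots 4 of 36 members were at least 2-fold lower and 5 at least 2-fold higher, against 1.36% and 8.29% of 13987 genes. The 5 higher ones were Col9a1, with 266 WT and 955 KO UMIs there, and members with few UMIs. The latter were Col4a4 (21 and 59), Col6a4 (12 and 38), Col7a1 (14 and 52) and Col22a1 (16 and 46). Col5a3, which was 3.09-fold lower in the whole section, had a ratio of 0.916 there, and Col6a1 one of 0.921. Col4a2 stood at 78.7 and 104 CPM, a ratio of 1.32 (1.27 to 1.37), and Col18a1 at 12.1 and 21.9 CPM, a ratio of 1.81 (1.64 to 2.00). Fibrillar chains made up 60.4% of collagen UMIs in WT and 32.9% in KO melanoma-dense spots, and basement membrane chains 19.3% and 36.3%, so the class with the most UMIs differed between the sections. The stroma list in these spots stood at 382 CPM (WT) and 294 CPM (KO), and its part in the collagen ratios was not tested.

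Of 24 members in vessel-rich spots, 14 were lower in the KO section by 2-fold or more, against 4.45% of 10617 genes. Col1a1 stood at 5571 CPM (WT) and 1302 CPM (KO), 4.28-fold lower (4.14 to 4.42). Col15a1 stood at 369 and 170 CPM, 2.17-fold lower (1.98 to 2.39). Col4a1 stood at 743 and 579 CPM, a ratio of 0.779 (0.739 to 0.822), and Col4a2 at 551 and 549 CPM, a ratio of 0.997 (0.942 to 1.06). The stroma list stood at 2750 CPM in WT and 1087 CPM in KO vessel-rich spots, and the pericyte list at 828 and 366 CPM. In muscle-rich spots no member of 22 was at least 2-fold lower, against 0.777% of 10427 genes, and Col4a2 alone was at least 2-fold higher, at 76.0 and 160 CPM, against 4.79%. Since the muscle list differed 289 to 2156 CPM between these sets, they do not hold like tissue.

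Stroma-rich spots themselves differed between the sections. The 415 WT spots held 109468 CPM of all collagens and the 27 KO spots 49578 CPM, 2.21-fold lower (2.16 to 2.26). Of 20 members, 11 were at least 2-fold lower and 1 at least 2-fold higher, against 14% and 11.1% of 9651 genes. The higher one was Col18a1, with 60 WT and 9 KO UMIs, a ratio of 6.23 (2.72 to 12.6). Among the lower ones Col8a2 and Col27a1 had 0 KO UMIs and Col15a1 had 2. Col1a1 was 3.60-fold lower (3.42 to 3.79), at 38699 against 10750 CPM, while Col3a1 had a ratio of 0.802 (0.777 to 0.829), at 33284 and 26708 CPM. Col14a1 was higher in the KO spots, at 480 and 772 CPM, a ratio of 1.61 (1.32 to 1.94). Col12a1 was lower, with 3648 WT UMIs (611 CPM) and 4 KO UMIs (27.8 CPM). The KO spots were shallow, with a median of 4896 UMIs against 14151, and 3.70% of them lay more than 2 grid steps from an edge of the tissue or frame, against 52.0% in the WT. They held 14456 CPM of macrophage genes against 4418 CPM, and 20.9 CPM of pericyte and smooth muscle genes against 703 CPM, and the part of these differences in the collagen ratios was not tested.

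Taking the percentile in each section by itself gave 247 WT and 171 KO stroma-rich spots. Over these, all collagens stood at 123530 CPM (WT) and 34317 CPM (KO), a ratio of 0.278 (0.275 to 0.281). Col1a1 had a ratio of 0.181, Col3a1 one of 0.456 and Col12a1 one of 0.0857 (0.0650 to 0.111). Col14a1 turned to a ratio of 0.662 (0.593 to 0.737), so its higher level in KO stroma-rich spots depends on how the spots were chosen. Col4a1 stood at 73.1 and 140 CPM, a ratio of 1.91 (1.55 to 2.34), and Col4a2 at 53.2 and 122 CPM, a ratio of 2.30 (1.83 to 2.88). Set against the stroma list rather than against all UMIs, collagens were still lower in the KO section. In these spots there were 5.996 collagen UMIs per UMI of the stroma list in the WT (5.95 to 6.04) and 4.15 in the KO section (4.05 to 4.24). For Col1a1 the values in these stroma-rich spots were 2.12 and 0.957, for Col3a1 1.84 and 2.09, and for the fibroblast proteoglycan Dcn, a member of that list, 0.0538 and 0.179.

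Collagen-rich spots, those at or above the 90th percentile of the summed collagens over both sections (57604 CPM), were 576 (WT) and 6 (KO). Because the sum chose them, only their make-up is given. In the WT section they held 70.9% of all collagen UMIs, and 374 of them were also stroma-rich. Fibrillar chains made up 95.2% of their collagen UMIs, beaded chains 2.42%, fibril-associated chains 1.19% and basement membrane chains 0.573%. In the 6 KO spots fibrillar chains made up 96.5% (exact binomial interval 95.7% to 97.2%) and beaded chains 1.84%. With the top 10% of spots of each section, 307 WT and 275 KO spots, the fibrillar share was 96.4% and 92.0%, the beaded share 1.92% and 3.27% and the basement membrane share 0.202% and 2.42%. In spots of 5000 to 20000 collagen CPM the fibrillar share was 82.8% (WT) and 82.9% (KO), in spots of 1000 to 5000 CPM 61.95% and 56.2%, and in spots of 200 to 1000 CPM 33.8% and 28.1%.

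The ratio of Col3a1 to Col1a1 UMIs was higher in the KO section in every set of spots. A probe count does not give molecules per gene, so such a ratio is read only across spots and sections. Over all spots it was 0.744 (WT, interval 0.741 to 0.748) and 1.23 (KO, interval 1.21 to 1.24), and the quadrants did not overlap, at 0.490 to 0.825 and 0.856 to 1.47. It was 0.860 and 2.48 in stroma-rich spots, 0.827 and 1.78 in the top 10% by collagen, 0.537 and 0.812 in vessel-rich spots and 0.4999 and 0.740 in melanoma-dense spots. In interior spots, more than 2 steps from an edge, the difference was smaller, 0.763 and 0.913, and the quadrants overlapped. The ratio moved with collagen level inside each section: spots of 1000 to 5000 CPM gave 0.414 (WT) and 0.727 (KO), and spots of at least 20000 CPM gave 0.780 and 1.86.

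The partner chains of type I collagen kept a steadier ratio in most sets of spots. Col1a2 per Col1a1 was 0.712 over all WT spots (0.709 to 0.715) and 0.664 over all KO spots (0.654 to 0.674), with overlapping quadrants. It was 0.724 and 0.727 in spots of at least 20000 CPM and 0.672 and 0.674 in melanoma-dense spots. In interior spots it was lower in the KO section, at 0.691 (WT, 0.686 to 0.695) and 0.622 (KO, 0.609 to 0.636). In spots of 200 to 1000 CPM it was higher in the KO section, at 0.616 (WT) and 0.703 (KO). Below 200 CPM it was 0.343 and 0.72, with wide intervals that overlapped. Col5a2 per Col5a1, partner chains of type V collagen, was 0.862 (WT) and 1.32 (KO), with quadrants of 0.837 to 1.16 and 1.18 to 1.86. Col4a2 per Col4a1, the pair with the shared start region shown above, was 0.727 (WT, interval 0.710 to 0.744) and 0.903 (KO, interval 0.881 to 0.925), and the quadrants were apart, at 0.682 to 0.769 and 0.835 to 0.915. It was 0.742 and 0.949 in vessel-rich spots and 0.716 and 0.888 in melanoma-dense spots. Col6a1 per Col6a2 was 0.417 and 0.521, with quadrants of 0.406 to 0.451 and 0.497 to 0.552.

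**Figure D4:**
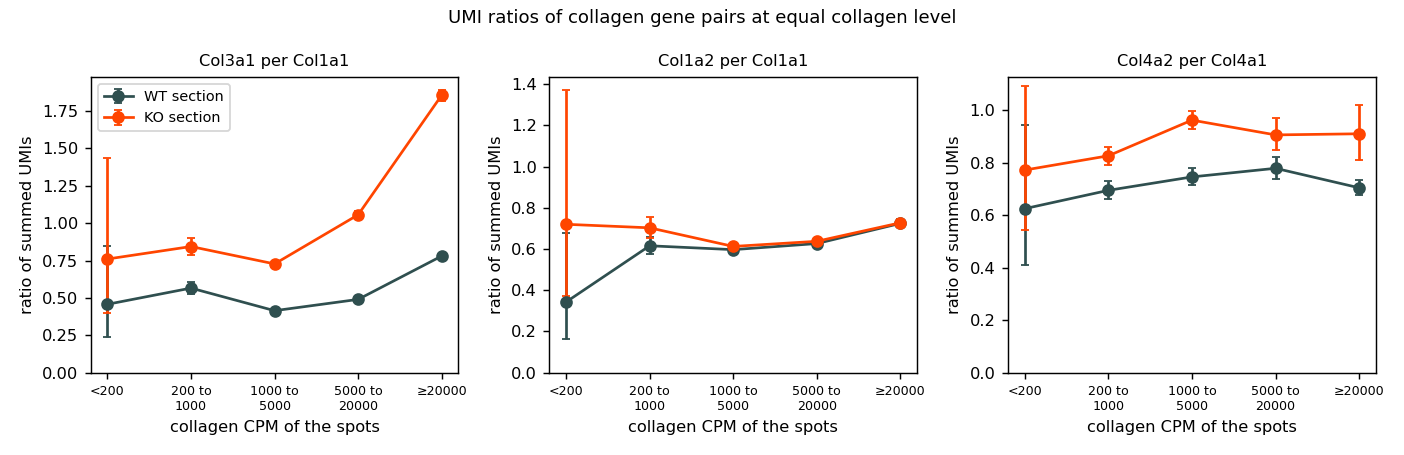
Ratio of summed UMIs for 3 gene pairs (Col3a1 per Col1a1, Col1a2 per Col1a1, Col4a2 per Col4a1) in spots grouped by their summed collagen CPM, WT dark and KO orange, with 95% counting intervals. The KO points lie above the WT points in the first and last panel, up to 1.86 against 0.780 for Col3a1, and nearly meet in the middle panel from 1000 CPM on.

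Fibrillar transcripts in melanoma-dense spots thinned out with distance from stroma. In the WT section Col1a1 stood at 3938 CPM in the 17 melanoma-dense spots next to a spot past the stroma percentile, 1674 CPM at 2 steps, 694 CPM at 3 to 4 steps, 237 CPM at 5 to 8 steps and 82.1 CPM in the 824 spots at 9 or more. The beaded total declined less, from 412 to 44.4 CPM. Col4a1 and Col4a2 together were lowest next to the stroma, at 86.4 CPM, and stood between 179 and 229 CPM farther out. In the KO section all but 108 of the 1460 melanoma-dense spots lay 9 or more steps away. The type IV pair stood there at 287 CPM at 3 to 4 steps (9 spots) and 368 CPM at 5 to 8 steps. In the farthest class Col1a1 stood at 58.3 CPM in the KO section and the fibrillar total at 205 CPM against 247 CPM in the WT section, while Col4a1 and Col4a2 together stood at 207 against 179 CPM. The KO over WT difference in the fibrillar total was smaller far from stroma than over all melanoma-dense spots.

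**Figure D5:**
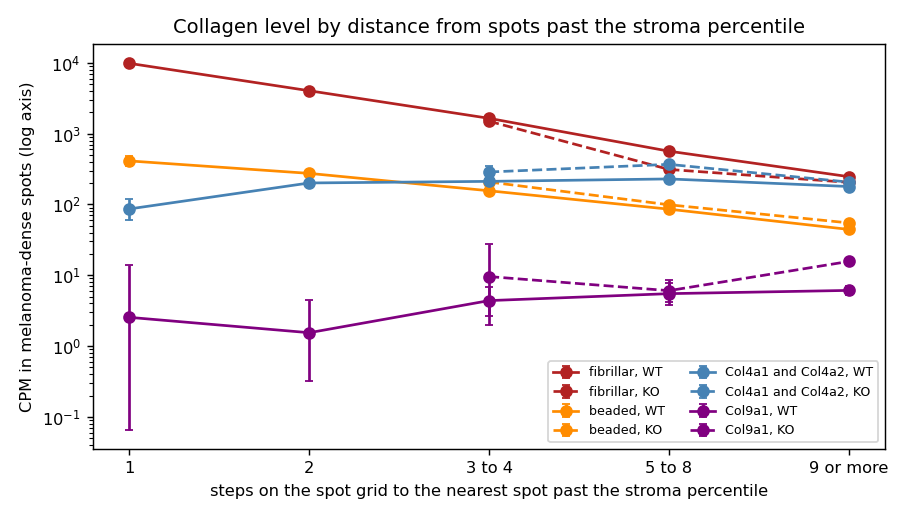
CPM on a log axis of fibrillar collagens, beaded collagens, Col4a1 with Col4a2, and Col9a1 in melanoma-dense spots, by grid steps to the nearest spot past the stroma percentile (548 WT and 34 KO spots), solid for WT and dashed for KO, with 95% counting intervals. Fibrillar collagens drop from 9836 to 247 CPM in the WT section, the type IV pair lies between 86.4 and 229 CPM in the WT and between 207 and 368 CPM in the KO section, which has spots only from 3 steps on.

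The authors' Moran's I, a score of how strongly neighbouring spots resemble each other, ranked the type I and III chains at the top. In the WT section Col1a1 (0.903), Col1a2 (0.886) and Col3a1 (0.882) held ranks 1, 2 and 3 of all genes. In the KO section they held ranks 3 (0.734), 9 (0.708) and 5 (0.730). Col4a1 had 0.446 (WT) and 0.419 (KO), and Col4a2 0.415 and 0.395. Several genes had a much lower score in the KO section, such as Col5a3 (0.682 and 0.232), Col12a1 (0.625 and 0.259), Col8a2 (0.432 and -0.00086), Col13a1 (0.279 and 0.0028) and Col11a1 (0.255 and -0.0021). Col8a2, Col13a1 and Col11a1 had 125 or fewer UMIs in the KO section. Col9a1 had 0.230 and 0.345.

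Over spots of at least 5000 UMIs, 2671 (WT) and 2390 (KO), the type I, III and V chains followed each other. Spearman correlations of CPM between Col1a1 and Col3a1 were 0.94 (WT) and 0.85 (KO), and between Col1a1 and the stroma list 0.92 and 0.79. Spots of 1 section share a library and tissue, and Col1a1 also went with fewer UMIs per spot (-0.50 and -0.23). Col4a1 went with Col4a2 (0.72 and 0.72) and with the endothelial list (0.63 and 0.71) more than with Col1a1 (0.20 and 0.32). Col15a1 went with the pericyte and smooth muscle list at 0.60 (WT) and 0.41 (KO).

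Genes that make and trim collagen were taken as lists by step. Over all 16961 genes, 38% had a ratio below 1 and 4.85% were lower by 2-fold or more. Of 15 genes of collagen hydroxylation, 10 had a ratio below 1, against that 38%, and 2 were lower by 2-fold or more, against 4.85%. Their median log2 ratio was -0.24, against the 0.15 of all genes. P4hb, the shared subunit of prolyl 4-hydroxylase and a general disulfide isomerase, stood at 1096 CPM (WT) and 1229 CPM (KO). Ppib stood at 486 and 411 CPM, and P4ha1, a catalytic subunit, at 189 and 236 CPM, a ratio of 1.25 (1.07 with TMM factors). P4ha3, another catalytic subunit, stood at 21.0 and 1.90 CPM, 11.1-fold lower, and P3h2 at 27.5 and 44.4 CPM, a ratio of 1.62. Of 7 measured genes of folding and export, 4 had a ratio below 1 (38% of all genes) and 2 were lower by 2-fold or more (4.85%), with a median of -0.31. The collagen chaperone Serpinh1 stood at 1378 and 908 CPM, a ratio of 0.659, and Creb3l1, a transcription factor of secretory load, at 57.2 and 7.78 CPM, 7.34-fold lower. Mia3, which loads procollagen into vesicles, had a ratio of 1.15, Tmem131 one of 1.01 and Fkbp14 one of 1.35.

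Genes of trimming and cross-linking were mostly lower. Of 13, 12 had a ratio below 1 (38% of all genes) and 7 were lower by 2-fold or more (4.85%). The median log2 ratio was -1.04, against 0.15 over all genes. Bmp1, the procollagen C-proteinase, stood at 131 CPM (WT) and 42.5 CPM (KO), 3.09-fold lower. The cross-linking enzymes Lox (130 and 15.4 CPM, 8.45-fold) and Loxl2 (136 and 43.3 CPM, 3.15-fold) were lower. Pcolce, which enhances Bmp1, stood at 274 and 166 CPM, 1.65-fold lower, and Pcolce2 at 3.88 and 4.09 CPM. Of 9 measured fibril-binding proteoglycans, 8 were lower by 2-fold or more, against 4.85% of all genes, and the median was -1.58. Bgn stood at 392 and 69.0 CPM, 5.67-fold lower, Prelp at 63.8 and 28.9 CPM, 2.20-fold lower, and Fmod at 9.30 and 0.773 CPM, 12.0-fold lower. Omd gave 32 and 45 UMIs. Dcn was 2.27-fold lower over the section, at 105 and 46.2 CPM, yet higher in the 27 KO stroma-rich spots, at 973 and 2302 CPM, and less so with each section's own percentile, at 1109 and 1479 CPM. Lox, Pcolce, Bgn and Dcn are also in the stroma list, so their lower values are not separate from that list's. The same list chose the stroma-rich spots, so the level of Dcn in them is partly set by that choice and is given only as a description.

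Of 9 measured collagen receptors, 7 had a ratio below 1 (38% of all genes) and 2 were lower by 2-fold or more (4.85% of all genes). The median log2 ratio was -0.34, against 0.15 over all genes. Itgb1, the beta 1 integrin shared by the collagen-binding integrins, stood at 398 CPM (WT) and 496 CPM (KO), a ratio of 1.24. The discoidin receptor Ddr1 stood at 111 and 87.8 CPM and Ddr2 at 116 and 97.5 CPM. Mrc2, the receptor that takes up collagen fragments in fibroblasts, stood at 38.4 and 6.47 CPM, 5.93-fold lower.

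Col9a1, with the largest ratio among the 23 members given in full, was scarce in WT stroma-rich spots, as were Col2a1, Col9a2, Col9a3 and Col11a2. In the WT section Col9a1 stood at 5.65 CPM in melanoma-dense spots and gave 1 UMI in 415 stroma-rich spots. In KO melanoma-dense spots it stood at 14.8 CPM, 2.62-fold above the WT ones (2.29 to 3.02). In vessel-rich spots it stood at 1.53 CPM (WT) and 9.55 CPM (KO), from 11 and 30 UMIs, and in muscle-rich spots at 16.9 and 16.8 CPM. Within melanoma-dense spots of at least 5000 UMIs it went with the level of Schwann cell genes, a list taken here without Sox10, which melanoma cells express too. Split into 4 groups of nearly equal size by that list, from lowest to highest, Col9a1 stood at 1.52, 1.65, 4.12 and 13.9 CPM in the WT section, from 16, 19, 49 and 182 UMIs. In the KO section it stood at 7.79, 13.5, 14.3 and 23.8 CPM. Median depth per group ran from 33610 to 43422.5 UMIs in the WT and from 43048 to 44806 in the KO section, so the groups differed in depth in the WT section and hardly in the KO section.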

How the data were processed

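Per the file headers, the authors counted UMIs per gene and spot with Space Ranger 2.1.0. The deposited matrices of 19465 genes hold whole, unnormalized counts for spots under tissue. The submitters' processing notes also name featureCounts and mm10, with no role for each. Moran's I is a score from the authors' deposited spatial tables. All members, classes and gene lists were chosen with earlier results of these data known.

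UMIs were summed per section or spot set and scaled to the total (CPM). Ratios carry exact conditional binomial (Clopper-Pearson) intervals at 95%, checked on simulated data, and cover counting error only. The number of probe pairs per gene was not available, so a UMI count does not rank genes or classes by their molecules. Class sums and shares of collagen UMIs are shares of counted UMIs, to be read across spots and sections. A member or gene was measured with at least 50 UMIs over the groups compared, log2 ratios had 0.5 added to each count, and a difference was named at 2-fold. Members with at least 500 UMIs in either section are given in full, and the others by count or range. Of each list of collagen-processing genes, receptors and proteoglycans, the names given are the 3 most abundant by UMIs plus the highest and the lowest ratio.

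TMM factors (edgeR 4.0.16 in R 4.3.3) were 0.927 for WT and 1.08 for KO, which moves every log2 ratio by -0.22. Sums used Python 3.11.15 with numpy 2.4.6, scipy 1.17.1 and pandas 2.3.3. The other alternatives were the total without the 50 most abundant genes, equal weight per spot, probe background taken off, interior spots, other percentiles, spots of several sets kept and, chosen after seeing the data, spots of at least 5000 UMIs.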

Additional observations from a re-analysis of the deposited data

How the results depend on the processing

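The log2 ratio of the collagen sum between sections, -2.70, stood at -2.92 with TMM factors, -2.71 without the 50 most abundant genes or with probe background taken off, -2.45 with equal weight per spot, -3.06 in interior spots and -2.75 in spots of at least 5000 UMIs. The members' median log2 ratio, -0.31, stood at -0.53 with TMM factors, -0.55 after removing probe background and -1.15 when a member needed 200 UMIs. In stroma-rich spots the log2 ratio of the sum, -1.14, stood at -1.25 without the 50 most abundant genes, -1.80 in interior spots (1 KO spot), -1.04 in spots of at least 5000 UMIs, -1.01 at the 95th percentile (1 KO spot), -1.09 with spots of several sets kept and -1.85 with each section's own percentile. The log2 ratio of stroma-rich over melanoma-dense spots in the WT section, 6.66, stood at 6.16 with equal weight, 6.79 in interior spots, 6.72 at the 95th percentile, 6.56 with several sets kept and 6.52 with its own percentile. In the KO section, 6.21 became 6.25 with background taken off, 5.66 in interior spots, 6.32 in spots of at least 5000 UMIs, 6.43 at the 95th percentile, 6.16 with several sets kept and 5.85 with its own percentile. The fibrillar share in WT collagen-rich spots, 95.2%, was 95.5% with equal weight or in interior spots, 96.5% at the 95th percentile and 96.4% with its own percentile. In the KO section, 96.5% became 92.0% with its own percentile, and no spots were left in the interior or at the 95th percentile. The cause of these shifts was not tested. Of the 23 members given in full, the 15 at least 2-fold apart stayed so under 6 of 6 alternatives over whole sections. The direction turned for Col18a1 with equal weight (-0.18) and for Col11a2 (-0.07) and Col4a5 (-0.03) with TMM factors. No paired analysis was possible because each genotype has 1 section. Members under 50 UMIs cannot be told from probe background, and passing that minimum does not by itself set a member apart from it. Col4a3, Col6a4, Col6a5, Col10a1, Col22a1 and Col25a1 passed it without exceeding 2 times the background median in either section. Single background genes reached 333 WT and 380 KO UMIs. KO stroma-rich spots hold too few UMIs to measure scarce members.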
